A study of Mus musculus with 18 samples.

Results

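Collagens are the structural proteins of the extracellular matrix, each assembled from 3 alpha chains wound into a triple helix. Fibrillar collagens form the load-bearing fibres of stroma, network collagens form basement membranes, and smaller classes bind fibrils to each other, to cells or to basement membrane. In tumours most fibrillar collagen is usually attributed to fibroblasts, although cancer cells and vessel cells can also make collagen chains. The collagen genes here are all rows of the deposited table named Col, a number, the letter a and a number. There were 44 of them among 55291 genes, and all 44 had a position in GENCODE M21 on the mm10 build.

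The tumours were grown under the skin of mice from LL/2 cells (Lewis lung carcinoma, of C57BL/6 origin), CT26-NY-ESO-1 cells (a CT26 line carrying the name of a human cancer-testis antigen) or CT26 cells (a colon carcinoma line of BALB/c origin). The labels name BALB/cJ and C57BL/6J hosts without tying a strain to a library. By the origin of the lines, LL/2 tumours would differ from the others in host strain too, so line and host cannot be told apart. Tumours of each line were injected with OK-432, a penicillin-treated preparation of Streptococcus pyogenes, for 24 h, or were controls, and all were collected on day 14. This gave 6 groups of 3 libraries. Whether each library stands for its own mouse is not stated in the labels, so the spread behind each p-value is that of 3 libraries a group and may be technical. The sources used here do not say what the controls received or how CT26-NY-ESO-1 cells were derived.

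Values are TPM, an abundance scaled for transcript length that sums to 1000000 in every library. The number of reads behind them is unknown. All differences are on the log2(TPM + 1) scale, on which differences of low genes come out too small. A difference was called at an adjusted p under 0.05 in limma, adjusted over the 16816 genes that reached 1 TPM in at least 3 of 18 libraries. Of the 44 collagen genes, 26 passed this filter, and the other 18 are described by their levels. In whole tumours, fewer cells of a type and less RNA per cell cannot be told apart.

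The 18 collagens below the filter came from most classes. None of them reached 1 TPM in 3 libraries, 16 of them stayed below 1 TPM in every library, and the highest value was 1.76 TPM for Col10a1, the hypertrophic cartilage collagen, in a CT26-NY-ESO-1 control. Col13a1, a transmembrane collagen, reached 1.14 TPM in an LL/2 OK-432 library. Col2a1, the main cartilage collagen, stayed at or below 0.483 TPM, and Col17a1, the hemidesmosome collagen of skin, at or below 0.605 TPM. The type IV chains Col4a3 and Col4a4, known from kidney glomeruli, stayed at or below 0.104 and 0.304 TPM. The long type VI chains Col6a4, Col6a5 and Col6a6 stayed at or below 0.566 TPM.

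Each tumour line carried most of the same collagens, at very different levels. With a collagen counted as carried at 1 TPM or more in all 3 control libraries, LL/2 tumours carried 23, CT26-NY-ESO-1 tumours 21 and CT26 tumours 21. All 3 lines carried 19. Col23a1, a transmembrane collagen, and Col24a1, a minor fibrillar collagen, were carried by LL/2 tumours alone. Col20a1, a collagen that associates with fibrils, was carried by CT26-NY-ESO-1 tumours alone, and Col28a1 by CT26 tumours alone. These labels rest on low values near the threshold: Col28a1 had 1.78, 0.736 and 1.14 TPM in LL/2 controls and 1.65, 1.64 and 1.58 TPM in CT26 controls. Col4a5 was carried by LL/2 and CT26-NY-ESO-1 tumours and not by CT26 tumours.

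Summed over the 44 genes, collagen took 4661 ± 554 TPM in LL/2 controls, 2245 ± 275 TPM in CT26-NY-ESO-1 controls and 10675 ± 2107 TPM in CT26 controls (SD, n = 3 each). As shares of the library these were 0.466%, 0.224% and 1.07%. The ranges did not overlap between lines. With OK-432 the sums were 4335 ± 262 TPM in LL/2, 2424 ± 292 TPM in CT26-NY-ESO-1 and 10689 ± 1446 TPM in CT26 tumours (SD, n = 3 each), and each overlapped the range of its own controls.

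The make-up of that sum differed by line. In CT26 controls fibrillar chains gave 81.6% of all collagen TPM, against 58.3% in LL/2 controls and 58.9% in CT26-NY-ESO-1 controls. Beaded-filament chains (type VI) gave 14.0% in LL/2, 9.09% in CT26-NY-ESO-1 and 7.19% in CT26 controls. Multiplexins, the basement membrane collagens that carry heparan sulfate or chondroitin sulfate chains, gave 11.95% in LL/2, 3.97% in CT26-NY-ESO-1 and 1.34% in CT26 controls. Type IV chains gave 9.36%, 15.1% and 5.23% of collagen TPM in the same 3 groups.

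The leading gene also differed. Col3a1 led in LL/2 controls with 52.9% of collagen TPM, followed by Col18a1 with 11.7%. Col1a2 led in CT26-NY-ESO-1 controls with 31.6%, followed by Col3a1 with 14.8%. In CT26 controls Col3a1 gave 39.4%, Col1a2 22.2% and Col5a2 7.60%.

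**Figure D1:**
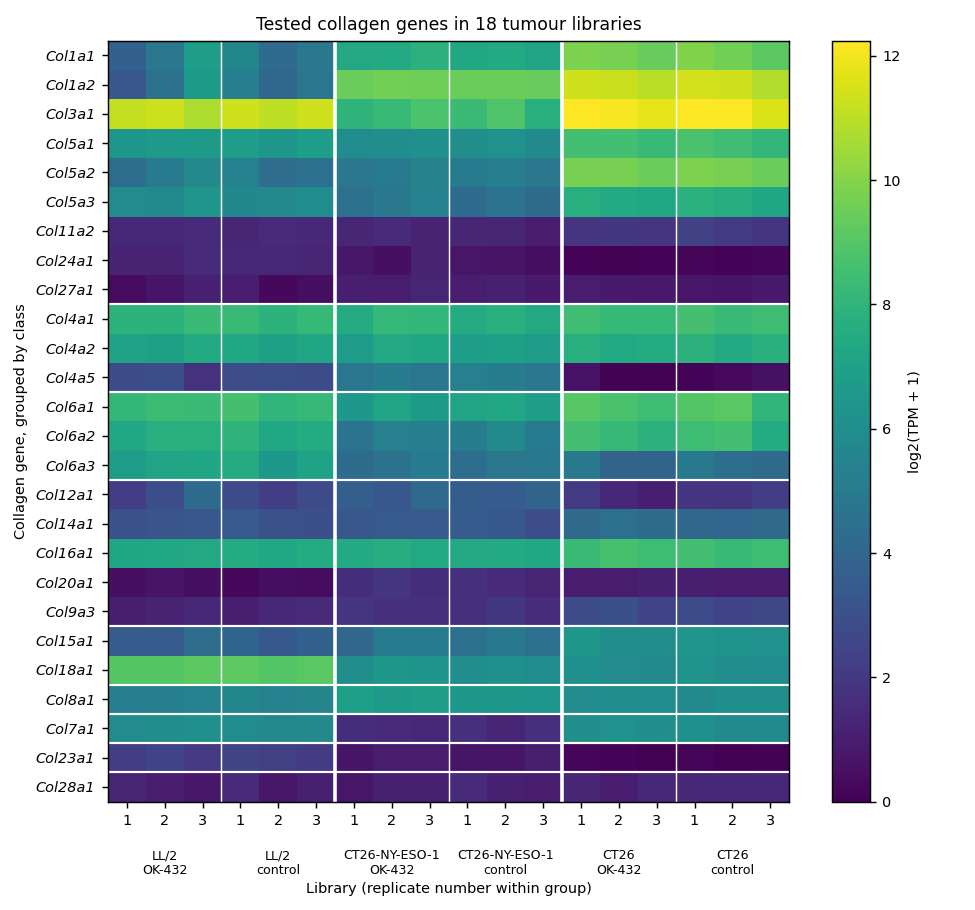
Level of the 26 tested collagen genes (rows, grouped by class with white lines: fibrillar, type IV, type VI, fibril-associated, multiplexin, type VIII, type VII, transmembrane, other) in each of the 18 libraries (columns, replicate number under each), as log2(TPM + 1) by colour. Columns change colour between tumour lines far more than between OK-432 and control libraries of a line, as for Col3a1, Col1a2, Col7a1 and Col4a5.

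4 stretches of DNA upstream of collagen genes are shown as background to the levels of those genes. Promoter activity was not measured, and any part of these stretches in the levels was not tested. Col3a1 and Col7a1, on different chromosomes, were each called lower in CT26-NY-ESO-1 than in both other lines. Col4a5 and Col4a6 start 1308 bases apart in opposite directions on chromosome X, and Col4a5 had transcripts where Col4a6 had next to none. The sequences are from RefSeq promoter windows on GRCm38.p6, in which 35 of the 44 members had an entry. Each is the stretch before the gene's start that no GENCODE M21 exon covers, written 5′ to 3′ on the gene's strand. Capitals mark matches on either strand. The CCAAT box was searched as the letters of its name. The GC box was searched as GGGCGG. The TATA motif was searched as TATAAA. None of the marked motifs overlap.
Col3a1, chr1:45311288-45311537, plus strand: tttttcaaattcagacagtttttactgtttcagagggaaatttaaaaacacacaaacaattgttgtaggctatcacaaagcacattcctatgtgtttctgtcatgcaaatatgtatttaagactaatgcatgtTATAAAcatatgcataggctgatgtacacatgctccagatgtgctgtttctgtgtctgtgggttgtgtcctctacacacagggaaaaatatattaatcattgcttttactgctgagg
Col7a1, chr9:108953336-108953585, plus strand: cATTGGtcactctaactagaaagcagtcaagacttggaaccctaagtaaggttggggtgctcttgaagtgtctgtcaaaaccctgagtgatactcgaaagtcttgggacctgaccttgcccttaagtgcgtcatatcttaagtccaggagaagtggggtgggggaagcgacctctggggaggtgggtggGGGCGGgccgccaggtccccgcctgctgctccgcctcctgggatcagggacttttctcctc
Col4a5, chrX:141475169-141475384, plus strand: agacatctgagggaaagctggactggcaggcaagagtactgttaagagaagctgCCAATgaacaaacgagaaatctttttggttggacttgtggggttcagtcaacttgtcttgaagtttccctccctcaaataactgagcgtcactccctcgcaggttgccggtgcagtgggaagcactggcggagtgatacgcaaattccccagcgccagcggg
Col4a6, chrX:141474077-141474326, minus strand: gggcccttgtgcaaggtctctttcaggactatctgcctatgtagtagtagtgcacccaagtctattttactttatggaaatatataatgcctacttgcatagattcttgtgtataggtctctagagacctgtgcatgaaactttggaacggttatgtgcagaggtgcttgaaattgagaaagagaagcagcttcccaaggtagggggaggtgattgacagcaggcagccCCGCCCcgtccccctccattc
The letters of Col3a1 hold a TATA motif and neither of the other motifs, and those of Col7a1 hold a CCAAT box and a GC box and no TATA motif. The Col4a5 stretch holds a CCAAT box and the Col4a6 stretch a GC box. Among all 32851 promoter windows in the table, the 250 bases before the start held a CCAAT box in 33.8%, a GC box in 32.7% and a TATA motif in 12.4%. Over the shorter window matched to the 216 bases of Col4a5, a CCAAT box stood in 30.5%. So Col3a1 and Col7a1 share none of the 3 searched motifs, and each motif is common among promoters.

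The main comparison between lines asked which collagens differ among control tumours. In LL/2 minus CT26 controls, 19 of the 26 tested collagens were called, 5 higher and 14 lower in LL/2. Among all genes 68.8% were called, 29.1% higher and 39.7% lower, so the share of collagens called, 73.1%, was near the background. In LL/2 minus CT26-NY-ESO-1 controls 20 were called, 11 higher and 9 lower, or 76.9% against 66.3% of all genes (38.8% higher, 27.5% lower). In CT26-NY-ESO-1 minus CT26 controls 22 were called, 6 higher and 16 lower, or 84.6% against 64.9% of all genes (21.1% higher, 43.9% lower). The sizes stood further from the background than the counts. The median absolute log2 difference was 0.94, 1.03 and 0.98 over the tested collagens in these 3 comparisons, against 0.46, 0.41 and 0.41 over all tested genes. That background was not matched to the collagens in level, and differences of low genes come out too small on this scale.

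Among the fibrillar collagens, Col3a1 (chromosome 1, 45311538 to 45349706, plus strand) encodes the single chain of type III collagen, found with type I in distensible tissue. It had 2625, 2178 and 2596 TPM in LL/2 controls, 320.5, 468 and 210.5 TPM in CT26-NY-ESO-1 controls, and 4799.5, 4702 and 3107 TPM in CT26 controls. The CT26-NY-ESO-1 libraries all lay far below the others, and no groups overlapped. It was lower in CT26-NY-ESO-1 than in CT26 controls by a log2 difference of -3.70 ± 0.28 (SE; limma adjusted p = 4.22e-08) and higher in LL/2 than in CT26-NY-ESO-1 controls by 2.96 ± 0.28 (adjusted p = 4.63e-07). The smaller LL/2 minus CT26 difference, -0.75 ± 0.28, was called (adjusted p = 0.0294). That call was lost under median-of-ratios scaling (adjusted p = 0.051) and without CT26 control 1 or 2 or LL/2 control 2 (adjusted p = 0.0974, 0.092 and 0.0883).

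Type I collagen, the main fibre of most connective tissue, is normally built from 2 chains encoded by Col1a1 and 1 by Col1a2. Col1a2 had 36.5, 16.5 and 27.0 TPM in LL/2 controls, 729.8, 720.4 and 681 TPM in CT26-NY-ESO-1 controls, and 2703, 2599 and 1818 TPM in CT26 controls. Col1a1 had 47.4, 18.5 and 27.8 TPM in LL/2 controls, 158, 179 and 141 TPM in CT26-NY-ESO-1 controls, and 964, 804 and 569 TPM in CT26 controls. Both genes thus followed the order CT26, CT26-NY-ESO-1, LL/2 with no overlap between groups. Col1a2 was lower in LL/2 than in CT26 controls by -6.47 ± 0.58 (SE; limma adjusted p = 2.72e-07) and Col1a1 by -4.66 ± 0.57 (adjusted p = 5.70e-06). Of the tested collagens in that comparison, Col5a2 alone lay between these values. The Col1a2 difference between CT26-NY-ESO-1 and CT26 controls, -1.72 ± 0.58, was called (adjusted p = 0.0194). It lost its call in 2 of 14 refits, without CT26 control 1 or 2 (adjusted p = 0.0536 and 0.0514), and kept it in the other 12.

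Type V collagen is a minor partner inside type I and III fibrils. Col5a2 (chromosome 1, 45374321 to 45503282, minus strand) lies 24614 bases from Col3a1 and had 40.9, 19.7 and 20.8 TPM in LL/2 controls, 31.5, 37.3 and 28.6 TPM in CT26-NY-ESO-1 controls and 899, 842 and 693 TPM in CT26 controls. It was lower than in CT26 controls by -4.92 ± 0.31 in LL/2 (SE; limma adjusted p = 5.11e-09) and by -4.60 ± 0.31 in CT26-NY-ESO-1 controls (adjusted p = 1.32e-08). The neighbours Col3a1 and Col5a2 parted in LL/2 tumours, where Col3a1 was 64.1 to 125 times Col5a2 in controls, against 7.36 to 12.5 times in CT26-NY-ESO-1 and 4.48 to 5.59 times in CT26 controls. Col5a1 was lower than in CT26 controls by -1.71 ± 0.15 in LL/2 (limma adjusted p = 4.61e-08) and -2.42 ± 0.15 in CT26-NY-ESO-1 controls (adjusted p = 8.66e-10). Col5a3 was lower by -1.73 ± 0.21 (adjusted p = 2.80e-06) and -3.11 ± 0.21 (adjusted p = 4.79e-09). All 3 type V chains were therefore highest in CT26 tumours.

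The minor fibrillar chains were scarce. Col11a2 ranged from 0.883 to 4.13 TPM over the 18 libraries, Col24a1 from 0.037 to 1.85 TPM and Col27a1 from 0.215 to 1.37 TPM. Col24a1 was called higher in LL/2 than in CT26 controls (1.17 ± 0.14 SE, limma adjusted p = 1.56e-06), and Col11a2 lower (-0.72 ± 0.14, adjusted p = 0.000172).

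**Figure D2:**
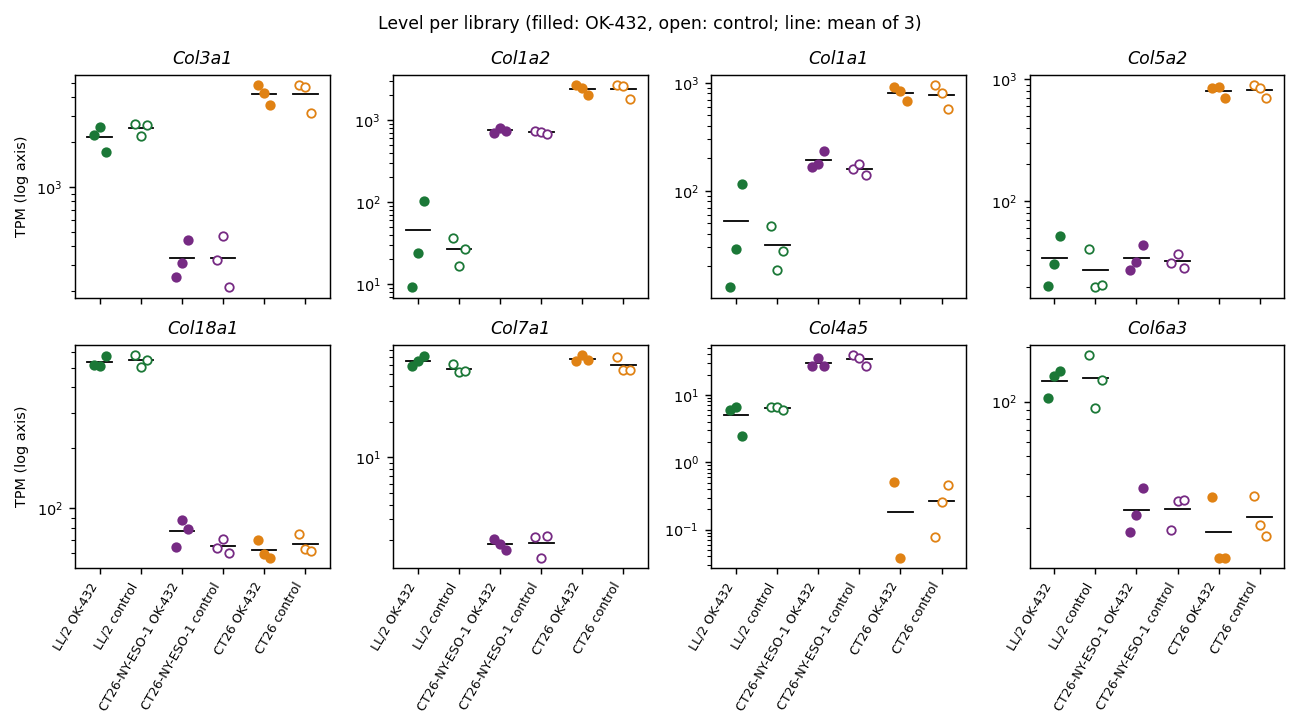
TPM per library on log axes for 8 collagen genes, in the order LL/2, CT26-NY-ESO-1 and CT26, with OK-432 libraries (filled) left of their controls (open) and a line at each mean of 3. Col18a1 and Col6a3 are highest in LL/2, Col4a5 in CT26-NY-ESO-1, Col3a1, Col1a2, Col1a1 and Col5a2 in CT26, and Col7a1 is low in CT26-NY-ESO-1 alone; the CT26 OK-432 library with Col4a5 listed at 0 has no point.

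Basement membranes are built on type IV collagen. Col4a1 and Col4a2, whose products form the common type IV trimer, lie on chromosome 8 (Col4a1 11198423 to 11312826, minus strand; Col4a2 11312805 to 11449287, plus strand). They run in opposite directions and their annotated starts overlap by 22 bases. How reads there were assigned is unknown, as the strand setting of the processing is not stated. Col4a1 had 310.1, 239 and 296 TPM in LL/2 controls, 186, 215 and 171 TPM in CT26-NY-ESO-1 controls and 395, 304 and 348 TPM in CT26 controls. It was lower in CT26-NY-ESO-1 than in CT26 controls (-0.87 ± 0.17 SE, limma adjusted p = 0.000321), and Col4a2 was lower too (-0.85 ± 0.16, adjusted p = 0.000175). In LL/2 minus CT26 controls Col4a1 was not called (-0.31, 95% interval -0.67 to 0.05), while Col4a2 was (-0.49 ± 0.16, adjusted p = 0.011). The Col4a2 call was lost without CT26 control 1 or LL/2 control 2 (adjusted p = 0.0532 and 0.053) and under quantile normalization (-0.30, adjusted p = 0.119). In LL/2 minus CT26-NY-ESO-1 controls Col4a1 was called higher (0.56 ± 0.17, adjusted p = 0.00859) and Col4a2 was not (0.36 ± 0.16, adjusted p = 0.052). Col4a2 was called there under quantile normalization (adjusted p = 0.0465), in a fit of the compared groups alone (adjusted p = 0.00894), and without LL/2 control 2 (adjusted p = 0.0315) or CT26-NY-ESO-1 control 2 (adjusted p = 0.0492).

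Endothelial and mural cells also make type IV collagen, and their markers differed between lines as well. Of 8 endothelial markers, 7 were called lower and 1 higher in LL/2 than in CT26 controls, and 7 lower and 0 higher in CT26-NY-ESO-1 than in CT26 controls, where 39.7% and 43.9% of all genes were called lower. In LL/2 minus CT26-NY-ESO-1 controls 5 of the 8 were called higher and 0 lower (38.8% of all genes higher). The summed level of the 8 markers was 113 to 158 TPM in LL/2, 73.6 to 104 TPM in CT26-NY-ESO-1 and 415 to 457 TPM in CT26 controls, with no marker at 0. Of 6 mural markers, 4 were called lower in LL/2 and 5 in CT26-NY-ESO-1 than in CT26 controls, and 0 were called in LL/2 minus CT26-NY-ESO-1 controls. Their sums were 48.4 to 70.9 TPM in LL/2, 44.0 to 62.4 TPM in CT26-NY-ESO-1 and 66.6 to 86.5 TPM in CT26 controls. Des, a mural marker here, had 17.7, 2.77 and 33.7 TPM in CT26-NY-ESO-1 controls, where skeletal muscle markers summed to 117, 9.65 and 145 TPM. In LL/2 minus CT26 controls Col4a1 and Col4a2 had negative differences, of which that of Col4a2 was called and that of Col4a1 was not (-0.31, 95% interval -0.67 to 0.05). Col4a5, the other tested type IV chain, was called higher in LL/2 there (2.56 ± 0.24 SE, limma adjusted p = 8.82e-08). The part of these cells in the collagen differences was not tested.

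Col4a5 (chromosome X, 141475385 to 141689234, plus strand) encodes a chain found in specialised basement membranes. It had 6.52, 6.74 and 5.94 TPM in LL/2 controls, 39.5, 35.1 and 27.3 TPM in CT26-NY-ESO-1 controls, and 0.0777, 0.26 and 0.458 TPM in CT26 controls. The groups lay an order of magnitude or more apart between CT26 and either other line. The CT26-NY-ESO-1 minus CT26 difference was 4.78 ± 0.24 (SE; limma adjusted p = 4.34e-11) and the LL/2 minus CT26 difference 2.56 ± 0.24 (adjusted p = 8.82e-08). Col4a6, its neighbour, reached at most 0.340 TPM in any library. The usual trimer partners of the Col4a5 product are the Col4a3 and Col4a4 chains or the Col4a6 chain, and all of these genes stayed at or below 0.340 TPM.

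Col18a1 and Col15a1 encode the multiplexins, and the Col18a1 product is the source of endostatin. Col18a1 (chromosome 10, 77052178 to 77166548, minus strand) had 581, 506 and 548 TPM in LL/2 controls, 63.5, 70.4 and 60.3 TPM in CT26-NY-ESO-1 controls and 74.9, 62.7 and 61.2 TPM in CT26 controls. Every LL/2 library was far above every library of the other lines. LL/2 exceeded CT26 controls by 3.02 ± 0.11 (SE; limma adjusted p = 2.96e-13) and CT26-NY-ESO-1 controls by 3.05 ± 0.11 (adjusted p = 3.09e-13). CT26-NY-ESO-1 and CT26 controls did not differ by a call (-0.03, 95% interval -0.26 to 0.20), and this sign turned with rescaling of the libraries (0.17 by median of ratios, 0.19 by quantile normalization). Col15a1 ran the other way, with 14.7, 9.20 and 12.9 TPM in LL/2, 22.3, 29.5 and 21.2 TPM in CT26-NY-ESO-1 and 81.6, 77.9 and 71.0 TPM in CT26 controls. It was lower in LL/2 than in CT26 controls by -2.57 ± 0.29 (limma adjusted p = 1.67e-06).

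Type VI collagen makes beaded filaments around cells from the Col6a1 and Col6a2 chains and a longer chain. Col6a3 (chromosome 1, 90765923 to 90843971, minus strand), the usual longer chain, had 182, 92.1 and 132 TPM in LL/2 controls, 19.5, 28.3 and 28.5 TPM in CT26-NY-ESO-1 controls and 29.9, 20.7 and 18.05 TPM in CT26 controls. It was higher in LL/2 than in CT26 controls by 2.49 ± 0.33 (SE; limma adjusted p = 9.84e-06), while Col6a1 (-0.40, 95% interval -0.98 to 0.17) and Col6a2 (-0.59, 95% interval -1.26 to 0.07) were not called. Without CT26 control 3 both were called lower in LL/2 (Col6a1 -0.72, adjusted p = 0.0139; Col6a2 -0.93, adjusted p = 0.0118). CT26-NY-ESO-1 controls were lower than CT26 controls in Col6a1 (-1.62 ± 0.27, adjusted p = 9.80e-05) and Col6a2 (-2.86 ± 0.31, adjusted p = 1.84e-06), and not called in Col6a3 (0.15, 95% interval -0.55 to 0.86). CT26 control 3 had the lowest Col6a1 and Col6a2 of its group, 269.6 and 183 TPM.

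Col7a1 (chromosome 9, 108953586 to 108984875, plus strand) encodes the anchoring fibril collagen of the skin basement membrane zone. It had 60.5, 52.5 and 53.7 TPM in LL/2 controls, 2.12, 1.43 and 2.17 TPM in CT26-NY-ESO-1 controls and 69.2, 54.3 and 54.3 TPM in CT26 controls. CT26-NY-ESO-1 libraries alone were low. The difference from CT26 controls was -4.37 ± 0.11 (SE; limma adjusted p = 6.86e-15), and LL/2 and CT26 controls did not differ by a call (-0.08, 95% interval -0.33 to 0.16). The 6 keratinocyte markers summed to at most 3.42 TPM in any library, and the part of skin in the Col7a1 values was not tested.

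Col8a1, a short-chain collagen of vessel walls and other sites, had 47.9, 40.8 and 45.9 TPM in LL/2 controls, 92.0, 91.8 and 86.7 TPM in CT26-NY-ESO-1 controls and 56.2, 68.3 and 66.9 TPM in CT26 controls. The 3 groups did not overlap. The difference was 0.50 ± 0.09 for CT26-NY-ESO-1 minus CT26 controls (SE; limma adjusted p = 0.000123) and -0.50 ± 0.09 for LL/2 minus CT26 controls (adjusted p = 0.000112). Col8a2, the other type VIII chain, stayed at or below 0.455 TPM.

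Among collagens that sit on fibril surfaces, Col16a1 was the most abundant, with 182, 162 and 186 TPM in LL/2, 164, 179 and 163 TPM in CT26-NY-ESO-1 and 379, 309 and 348 TPM in CT26 controls. It was lower than in CT26 controls in LL/2 (-0.96 ± 0.09 SE, limma adjusted p = 1.12e-07) and in CT26-NY-ESO-1 (-1.02 ± 0.09, adjusted p = 6.10e-08). Col14a1 was lower than in CT26 controls in the same lines (-0.92 ± 0.15, adjusted p = 4.09e-05; -0.79 ± 0.15, adjusted p = 0.000227), as was Col9a3 (-1.33 ± 0.16, adjusted p = 1.05e-06; -0.90 ± 0.16, adjusted p = 8.75e-05). Col12a1, a collagen of dense and stressed tissue, went the other way in CT26-NY-ESO-1, with 11.4, 10.7 and 14.4 TPM against 2.67, 2.62 and 3.67 TPM in CT26 controls (1.72 ± 0.41, limma adjusted p = 0.00172). Its LL/2 minus CT26-NY-ESO-1 difference (-1.07 ± 0.41, adjusted p = 0.0305) lost its call with no filter on low values (adjusted p = 0.0554) and without CT26-NY-ESO-1 control 1 or 3 or LL/2 control 2 (adjusted p = 0.0553 to 0.106). Col23a1 had 4.63, 3.93 and 3.44 TPM in LL/2 controls and at most 0.129 TPM in CT26 controls (2.23 ± 0.14, limma adjusted p = 2.53e-10).

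The OK-432 libraries gave the line comparisons again in other samples. Both sets came from the same fit, with a shared variance for each gene, so their calls are not independent. The share of all genes called in both sets is not given here. For LL/2 minus CT26, 20 collagens were called among OK-432 libraries (69.3% of all genes called), and 19 of these were the 19 called among controls. In LL/2 minus CT26-NY-ESO-1, 17 were called (67.2% of all genes), all among the 20 called in controls. In CT26-NY-ESO-1 minus CT26, 22 were called (66.5% of all genes), sharing 21 with the 22 of the controls. Every shared call had the same direction. The calls found in controls alone were Col12a1, Col27a1 and Col4a1 in LL/2 minus CT26-NY-ESO-1 and Col4a1 in CT26-NY-ESO-1 minus CT26. Those found in OK-432 libraries alone were Col12a1 in LL/2 minus CT26 and Col18a1 in CT26-NY-ESO-1 minus CT26 (0.31 ± 0.11 SE, limma adjusted p = 0.0208). The Col18a1 call was lost with no filter on low values (adjusted p = 0.0505), in a fit of the compared groups alone (adjusted p = 0.0592) and without any of 4 of the 6 libraries compared (CT26 OK-432 libraries 2 and 3 and CT26-NY-ESO-1 OK-432 libraries 2 and 3, adjusted p = 0.0634 to 0.118). Of the shared calls, Col4a2 was also weak among OK-432 libraries. Its LL/2 minus CT26 difference (-0.41 ± 0.16, adjusted p = 0.0302) lost its call in 7 of 14 refits, among them no filter (adjusted p = 0.0604), median-of-ratios scaling (adjusted p = 0.102) and quantile normalization (adjusted p = 0.282). Its CT26-NY-ESO-1 minus CT26 difference (-0.42 ± 0.16, adjusted p = 0.0263) lost its call in 5 of 14 refits, with adjusted p = 0.33 and 0.257 under the same scalings. The Col1a2 difference in CT26-NY-ESO-1 minus CT26 (-1.67 ± 0.58, limma adjusted p = 0.0221) also lost its call without certain single libraries. These were CT26 OK-432 library 1 or 2 and CT26-NY-ESO-1 OK-432 library 1 (adjusted p = 0.0562, 0.0518 and 0.0533).

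**Figure D3:**
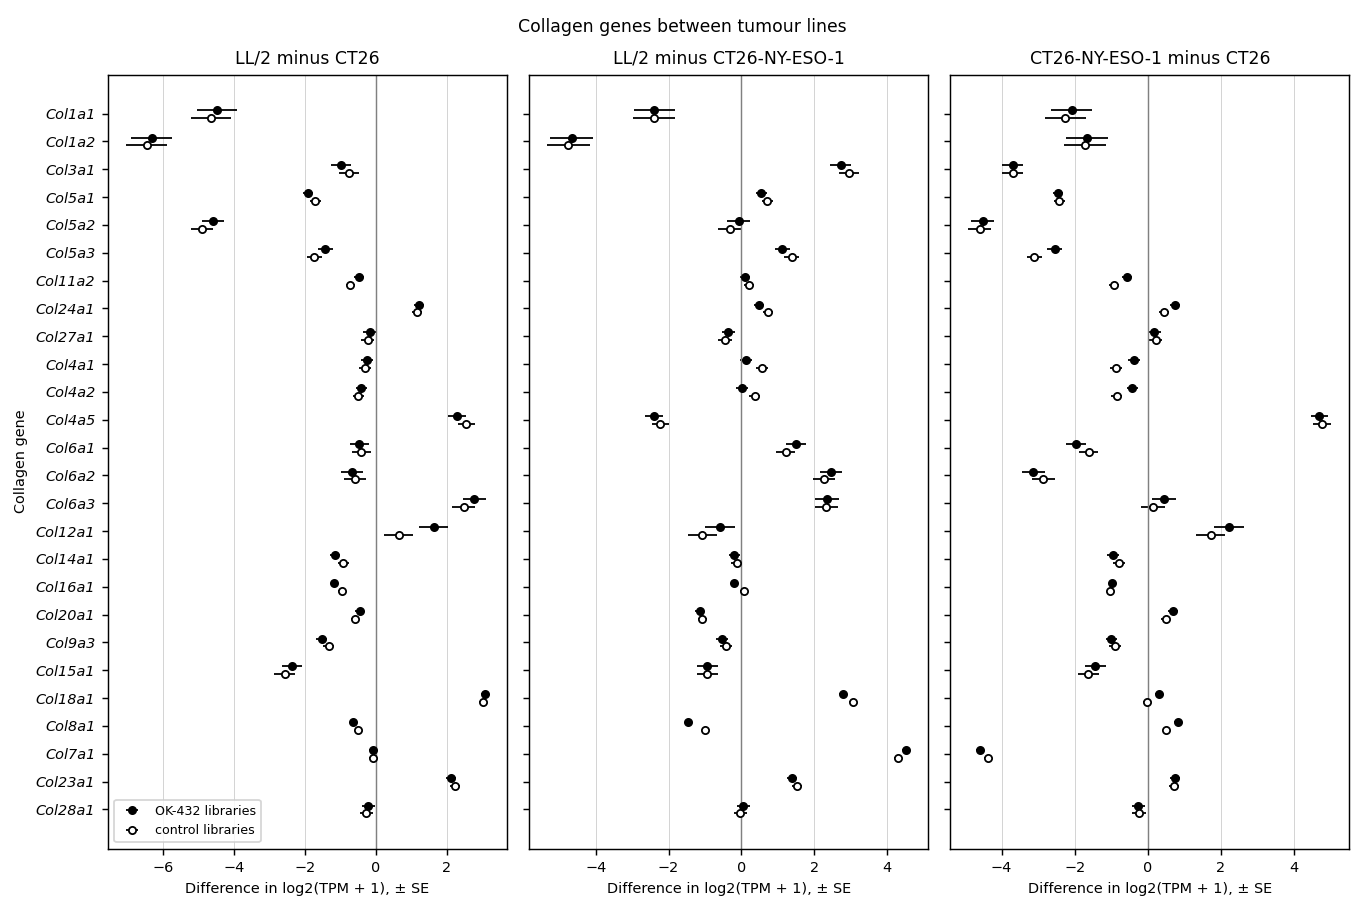
Log2(TPM + 1) difference between tumour lines (x axis, ± SE from limma) for each of the 26 tested collagens (y axis), in OK-432 libraries (filled) and control libraries (open). Filled and open points lie close together in each panel, with Col1a2 near -6.47 in LL/2 minus CT26 controls and Col4a5 near 4.78 in CT26-NY-ESO-1 minus CT26 controls at the ends.

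Ratios of chains within a library, chosen for description after their values were seen, separate some pairs from others. Col4a1 was 1.57 to 1.96 times Col4a2 in all 18 libraries, whatever the line or treatment. Col1a2 was 0.770 to 0.973 times Col1a1 in LL/2 controls, 4.03 to 4.82 times in CT26-NY-ESO-1 controls and 2.80 to 3.23 times in CT26 controls. Col3a1 was 55.3 to 117 times Col1a1 in LL/2 controls, against 1.49 to 2.62 times in CT26-NY-ESO-1 and 4.98 to 5.85 times in CT26 controls. In the type VI genes, Col6a1 was 1.59 to 1.71 times Col6a2 in LL/2, 2.88 to 4.12 times in CT26-NY-ESO-1 and 1.40 to 1.47 times in CT26 controls. Col6a1 was 2.21 to 2.88 times Col6a3 in LL/2 controls and 14.9 to 26.3 times in CT26 controls. Col5a1 was 2.76 to 5.55 times Col5a2 in LL/2, 1.91 to 2.07 times in CT26-NY-ESO-1 and 0.393 to 0.470 times in CT26 controls. The type IV pair was the steadiest of these 6 and the type III over type I ratio ranged most widely.

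**Figure D4:**
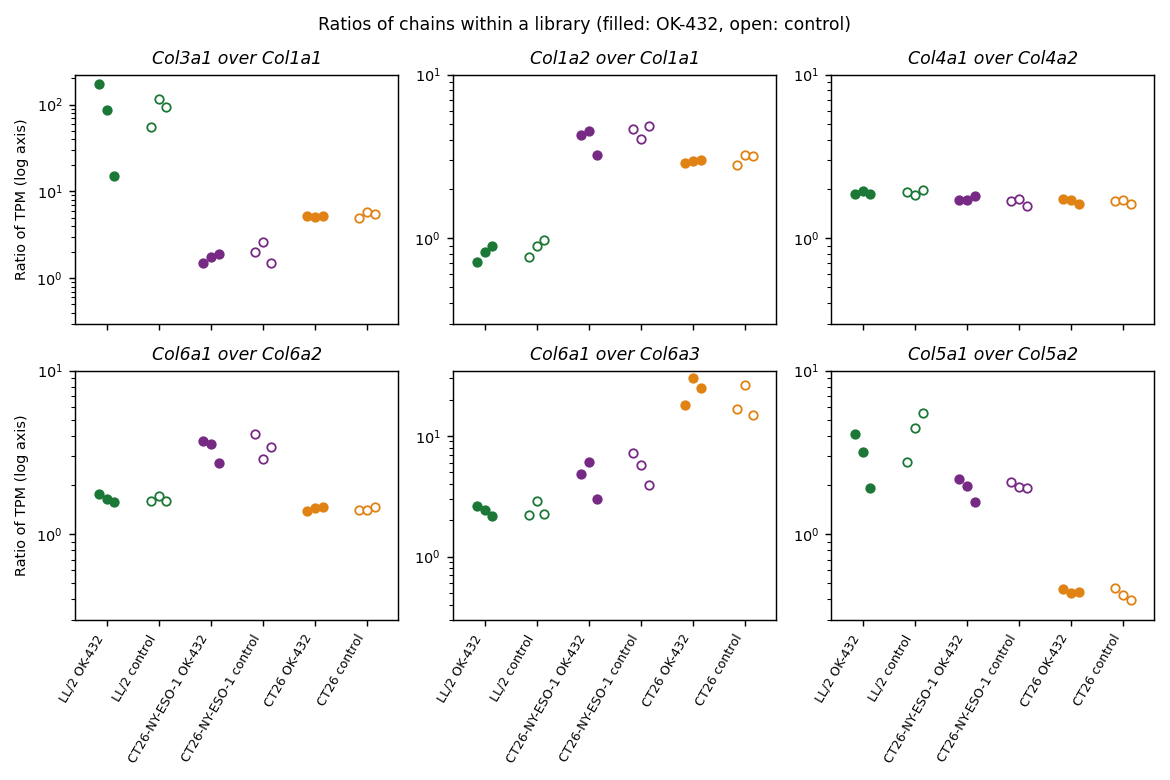
Ratio of the TPM of 2 collagen genes within each library (log axis) in 6 panels, for LL/2, CT26-NY-ESO-1 and CT26, with OK-432 libraries (filled) left of controls (open). The Col4a1 over Col4a2 points lie between 1.57 and 1.96, while Col3a1 over Col1a1 runs from 1.48 to 175.

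OK-432 was not followed by a called change in any of the 26 tested collagens after 24 h. No tested collagen of the 26 was called in LL/2 (0.0178% of all genes called), in CT26-NY-ESO-1 (0.666%) or in CT26 tumours (0% called). None was called in the average over the 3 lines (0.172% of all genes). At an unadjusted p under 0.05, limma gave 1 collagen in LL/2 (5.26% of all genes), 4 in CT26-NY-ESO-1 (16.2%), 0 in CT26 (4.1%) and 0 in the average (10.3%). The OK-432 and control libraries did not overlap for 2 of 26 collagens in LL/2 (9.87% of all genes), 1 in CT26-NY-ESO-1 (17%) and 2 in CT26 (9.89%). These were Col20a1 (higher with OK-432) and Col8a1 (lower) in LL/2, Col8a1 (higher) in CT26-NY-ESO-1, and Col14a1 (higher) and Col24a1 (lower) in CT26. These shares are at or below the background of all genes.

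The largest collagen differences with OK-432 were small beside those between lines. They ran from -0.37 to 0.51 in LL/2, from -0.31 to 0.50 in CT26-NY-ESO-1 and from -0.48 to 0.27 in CT26. The 95% interval lay within a 2-fold change of TPM + 1 in either direction for 23 of 26 collagens in LL/2, 24 in CT26-NY-ESO-1, 22 in CT26 and all 26 in the average. The exceptions were Col1a1 and Col1a2 in every line, Col12a1 in LL/2 and CT26, and Col6a3 in CT26. For those genes the interval reached beyond 2-fold on at least 1 side, so the fit does not bound the change as closely. For genes well below 1 TPM, an interval within 2-fold on this scale does not bound the change in TPM itself. Col24a1 is counted as within 2-fold in CT26 tumours. Its OK-432 libraries there held 0.0743, 0.0370 and 0.0724 TPM, and its control libraries 0.169, 0.0987 and 0.158 TPM. The fit gives each gene 1 variance over all 6 groups, so its SE is the same in every line, 0.58 for Col1a2. For its level, Col1a2 spread most in LL/2 OK-432 tumours (9.06 to 103 TPM). In CT26-NY-ESO-1 it ran from 681 to 730 TPM in controls and 703 to 803 TPM with OK-432. A wide interval is therefore no measure of the spread in that line alone.

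**Figure D5:**
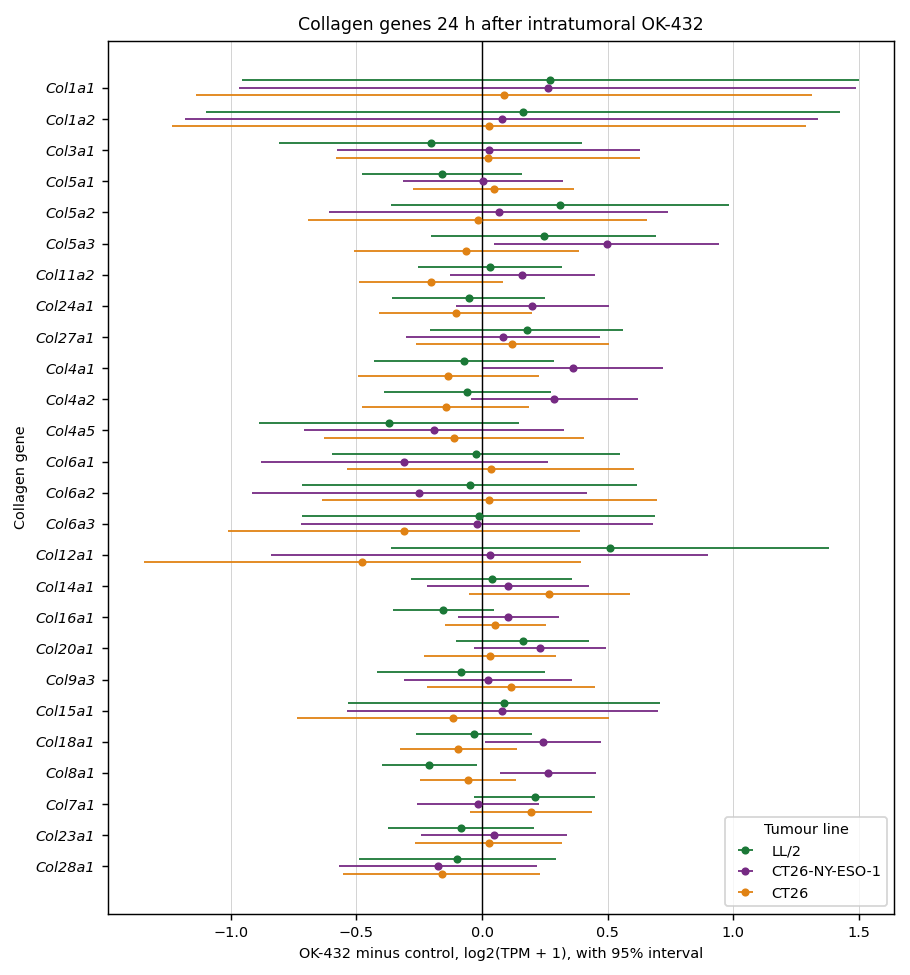
OK-432 minus control difference in log2(TPM + 1) (x axis) with its 95% interval for each of the 26 tested collagens (y axis), in LL/2, CT26-NY-ESO-1 and CT26 tumours. The estimates lie between -0.48 and 0.51, no gene was called, and the widest intervals belong to Col1a1, Col1a2 and Col12a1.

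Col8a1 had the smallest p with OK-432 in both LL/2 and CT26-NY-ESO-1 tumours, in opposite directions. It had 37.4, 37.6 and 40.8 TPM in LL/2 OK-432 tumours, against 47.9, 40.8 and 45.9 TPM in LL/2 controls. In CT26-NY-ESO-1 it had 119.9, 92.8 and 114 TPM with OK-432 and 92.0, 91.8 and 86.7 TPM in controls. The groups did not overlap in either line, with OK-432 libraries below the controls in LL/2, where the nearest pair both round to 40.8 TPM, and above them in CT26-NY-ESO-1. The log2 differences were -0.21 ± 0.09 in LL/2 (SE; limma adjusted p = 0.896) and 0.26 ± 0.09 in CT26-NY-ESO-1 (adjusted p = 0.159), and neither was called. The difference between these effects, -0.47 ± 0.13, was not called either (adjusted p = 0.296). Without CT26-NY-ESO-1 OK-432 library 2, Col8a1 was called in CT26-NY-ESO-1 (0.37, adjusted p = 0.0182) and in the difference (-0.58, adjusted p = 0.0393). In CT26 tumours it had 59.2, 62.7 and 61.6 TPM with OK-432 and 56.2, 68.3 and 66.9 TPM in controls.

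The other collagens at an unadjusted p under 0.05 were all in CT26-NY-ESO-1 tumours. Col5a3 had 22.2, 28.5 and 40.3 TPM with OK-432 and 18.7, 24.3 and 19.2 TPM in controls, a difference of 0.50 ± 0.21 (SE; limma adjusted p = 0.253). Col18a1 had 64.3, 88.1 and 79.4 TPM with OK-432 and 63.5, 70.4 and 60.3 TPM in controls (0.24 ± 0.11, adjusted p = 0.281). Col4a1 had 185, 286 and 274 TPM with OK-432 and 186, 215 and 171 TPM in controls (0.36 ± 0.17, adjusted p = 0.308). The groups overlapped for all of these genes. The summed endothelial markers were 98.2 to 135 TPM with OK-432 and 73.6 to 104 TPM in controls of this line, with 0 of 8 called, and their part in the Col4a1 and Col18a1 values was not tested.

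In CT26 tumours the smallest p belonged to Col14a1, with 17.8, 21.3 and 18.9 TPM with OK-432 and 15.3, 14.7 and 17.7 TPM in controls (0.27 ± 0.15 SE, limma adjusted p = 1). Col7a1 followed in both CT26 and LL/2 tumours. It had 58.2, 64.5 and 70.8 TPM in LL/2 OK-432 tumours against 60.5, 52.5 and 53.7 TPM in LL/2 controls, and 64.6, 72.9 and 65.3 TPM in CT26 OK-432 tumours against 69.2, 54.3 and 54.3 TPM in CT26 controls. The groups overlapped in each line, and averaged over the 3 lines the Col7a1 difference was 0.13 ± 0.07 (SE; limma adjusted p = 0.529). The smallest p of that average was for Col20a1 (0.14 ± 0.07, adjusted p = 0.526), followed by Col7a1 and Col5a3 (0.23 ± 0.12, adjusted p = 0.551). Col16a1 had 149, 160.4 and 165 TPM in LL/2 OK-432 tumours and 182, 162 and 186 TPM in LL/2 controls, which overlapped (-0.16 ± 0.09, adjusted p = 1). Col11a2 had 2.67, 3.01 and 2.53 TPM in CT26 OK-432 tumours and 4.13, 3.21 and 2.67 TPM in CT26 controls (-0.20 ± 0.14, adjusted p = 1).

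The effect of OK-432 on collagens was not shown to differ between lines. No collagen was called in the difference of effects LL/2 minus CT26 (0.00595% of all genes called), LL/2 minus CT26-NY-ESO-1 (0.00595%) or CT26-NY-ESO-1 minus CT26 (0%). The unadjusted p was under 0.05 for 0 collagens in LL/2 minus CT26 (4.89% of all genes), 1 in LL/2 minus CT26-NY-ESO-1 (8.81%) and 2 in CT26-NY-ESO-1 minus CT26 (8.84%), each share at or below that of all genes. Besides Col8a1 in LL/2 minus CT26-NY-ESO-1, these were Col8a1 (0.32 ± 0.13 SE, limma adjusted p = 0.517) and Col18a1 (0.34 ± 0.15, adjusted p = 0.547) in CT26-NY-ESO-1 minus CT26. For LL/2 minus CT26 the smallest p was that of Col12a1 (0.99 ± 0.57, adjusted p = 0.998).

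A single library stood apart in the type I chains and Col12a1. LL/2 OK-432 library 3 had 115 TPM of Col1a1, 103 TPM of Col1a2 and 18.3 TPM of Col12a1, while the other LL/2 OK-432 libraries had 12.7 and 29.0, 9.06 and 23.8, and 3.68 and 6.66 TPM. The same library had 11.96 TPM of Lox, the enzyme that cross-links collagen, against 0.916 and 1.78 TPM, and 28.5 TPM of the gelatinase Mmp2 against 5.002 and 9.57 TPM. Its Col3a1, 1721 TPM, was the lowest of the LL/2 OK-432 libraries, and its Col5a1, 100.5 TPM, lay close to the other values of 84.3 and 97.6 TPM. Several marker lists were also highest there: skeletal muscle markers summed to 417 TPM against 28.4 and 111 TPM, mural markers to 98.9 TPM against 40.2 and 49.4 TPM, and adipocyte markers to 29.1 TPM against 11.7 and 12.7 TPM. Of the mural sum, Des alone gave 40.2 TPM there, against 2.99 and 7.16 TPM. The summed fibroblast markers were lowest there (480.3 TPM against 586 and 594 TPM). Lum, the largest of them, had 218 TPM against 385 and 357 TPM. Pdgfra and Fap were also lowest there, and Dpt lay in between. The remaining fibroblast markers were highest there. Pi16 had 13.1 TPM against 1.51 and 2.95 TPM, Mfap5 10.8 TPM against 1.22 and 2.06 TPM, and Clec3b 6.38 TPM against 0.686 and 1.13 TPM. Thy1 had 22.8 TPM against 9.04 and 13.2 TPM, Pdgfrb 23.4 TPM against 12.9 and 13.8 TPM, and Twist2 47.0 TPM against 36.6 and 37.1 TPM. Without LL/2 OK-432 library 3 the OK-432 difference in LL/2 was -0.57 for Col1a1 and -0.74 for Col1a2, against 0.27 and 0.16 with it, and none of these was called. The part of these cell types in the collagen values was not tested.

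Genes that process collagen differed between lines too. Of 28 tested biosynthesis genes, 11 were called higher and 15 lower in LL/2 than in CT26 controls, 17 higher and 9 lower in LL/2 than in CT26-NY-ESO-1 controls, and 6 higher and 16 lower in CT26-NY-ESO-1 than in CT26 controls. The shares called were 92.9%, 92.9% and 78.6%, against 68.8%, 66.3% and 64.9% of all genes. Lox had 3.001, 1.96 and 2.03 TPM in LL/2, 13.3, 25.3 and 12.6 TPM in CT26-NY-ESO-1 and 342, 302 and 202 TPM in CT26 controls. That is the same order as Col1a1 and Col1a2, and Lox was lower than in CT26 controls by -6.39 ± 0.55 in LL/2 (SE; limma adjusted p = 1.53e-07) and -4.00 ± 0.55 in CT26-NY-ESO-1 (adjusted p = 1.96e-05). The cross-linking enzyme Loxl1 was lower by -6.08 ± 0.35 (adjusted p = 1.05e-09) and -3.99 ± 0.35 (adjusted p = 1.39e-07). LL/2 tumours had higher levels of other processing genes. The procollagen C-proteinase enhancer Pcolce2 was higher than in CT26 controls by 3.94 ± 0.10 (limma adjusted p = 4.48e-15), and Adamts14, a procollagen N-proteinase, by 3.40 ± 0.11 (adjusted p = 6.64e-14). Plod2, a lysyl hydroxylase, was higher in LL/2 than in CT26-NY-ESO-1 controls by 2.50 ± 0.24 (adjusted p = 3.85e-07).

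Of 9 tested fibril partners, 2 were called higher and 4 lower in LL/2 than in CT26 controls, or 66.7%, near the 68.8% of all genes. Among them, the small proteoglycan Bgn was lower (-3.44 ± 0.16 SE, limma adjusted p = 2.43e-11) and Lum, another small proteoglycan of fibrils, was higher (3.41 ± 0.34, adjusted p = 6.90e-07). Of 11 basement membrane partners, 3 were higher and 6 lower in LL/2 than in CT26 controls, and 5 higher and 4 lower in CT26-NY-ESO-1 than in CT26 controls. Each is 81.8% called, against 68.8% and 64.9% of all genes. The laminin chain gene Lama5 was higher than in CT26 controls in LL/2 (3.88 ± 0.15, limma adjusted p = 1.43e-12) and in CT26-NY-ESO-1 (3.22 ± 0.15, adjusted p = 2.23e-11). Nid1, which links laminin to type IV collagen, was higher in LL/2 than in CT26 controls (3.30 ± 0.12, adjusted p = 4.82e-13), with 466, 457 and 461 TPM against 47.7, 40.9 and 49.5 TPM.

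Mmp2 and Mrc2, of the breakdown and receptor lists, were highest in CT26 controls. Mmp2 had 11.98, 8.79 and 7.89 TPM in LL/2, 21.2, 21.9 and 16.7 TPM in CT26-NY-ESO-1 and 874, 701 and 576 TPM in CT26 controls. It was lower than in CT26 controls by -6.09 ± 0.42 in LL/2 (SE; limma adjusted p = 1.61e-08) and -5.09 ± 0.42 in CT26-NY-ESO-1 (adjusted p = 1.28e-07). The collagen uptake receptor Mrc2 was lower by -3.18 ± 0.10 (adjusted p = 4.56e-14) and -3.99 ± 0.10 (adjusted p = 4.48e-15). Of 7 tested breakdown genes, 1 was called higher and 2 lower in LL/2 than in CT26 controls, and 0 higher and 2 lower in CT26-NY-ESO-1. These shares, 42.9% and 28.6%, lay below the 68.8% and 64.9% of all genes. Of 8 tested receptors, 2 were higher and 2 lower in LL/2, and 1 higher and 5 lower in CT26-NY-ESO-1, so 50% and 75% were called. With OK-432, 1 gene of these 5 lists was called in any line. P4hb, a subunit of prolyl 4-hydroxylase, was higher in CT26-NY-ESO-1 tumours (0.30 ± 0.07, limma adjusted p = 0.0474), close to the threshold. Among all genes 0.666% were called in that line, 0.0178% in LL/2 and 0% in CT26 tumours.

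Fibroblast markers followed no single order among the lines. Their summed level over 10 genes was 529 to 660 TPM in LL/2, 172 to 220 TPM in CT26-NY-ESO-1 and 625 to 814 TPM in CT26 controls, with no marker at 0. Relative to CT26 controls, 3 were called higher and 6 lower in LL/2, where 29.1% of all genes were called higher and 39.7% lower. In CT26-NY-ESO-1 controls 2 were called higher and 6 lower, against 21.1% and 43.9% of all genes. Lum counts in both this list and the fibril partners. It was called higher in LL/2 than in CT26 controls and was the largest of these markers in LL/2 OK-432 libraries. The LL/2 and CT26 sums therefore differ in make-up, and their overlap does not mean a like level of each marker. Pdgfra was lower than in CT26 controls in CT26-NY-ESO-1 (-3.99 ± 0.12 SE, limma adjusted p = 3.71e-14). With OK-432, 0 of 10 fibroblast, 0 of 6 mural and 0 of 8 endothelial markers were called in any line. Of 6 tested neutrophil markers, 4 were called higher in CT26-NY-ESO-1 (0.666% of all genes called) and 4 in the average over the lines (0.172%). The summed neutrophil markers did not overlap between OK-432 and control tumours in any line, with 141 to 233 against 25.8 to 42.8 TPM in LL/2, 84.4 to 699 against 11.8 to 18.5 TPM in CT26-NY-ESO-1 and 103 to 178 against 27.7 to 34.0 TPM in CT26. Epithelial markers (5 genes) summed to 374 to 568 TPM in LL/2, 10.3 to 15.6 TPM in CT26-NY-ESO-1 and 1.29 to 1.42 TPM in CT26 controls. Krt8 and Krt18 made up nearly all of the LL/2 sum, while Epcam was at most 0.304 TPM in the controls of any line and Cdh1 at most 1.41 TPM, although CT26 and LL/2 are both carcinoma lines. The part of the cell types behind these markers in the collagen differences between lines was not tested.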

How the data were processed

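RNA of 18 bulk tumour samples in 6 groups of 3 was sequenced with a stranded mRNA kit. The authors deposited TPM values for 55291 genes, made with Trim Galore 0.6.5, STAR 2.7.3a and StringTie 2.1.2 on mm10, per the submitters' processing notes. The annotation, the strand setting and any filter are not stated there, no read counts were used, and depth is unknown. A gene listed at 0 may be a failed estimate.

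From these TPM, log2(TPM + 1) of the 16816 genes with at least 1 TPM in 3 or more libraries was fitted with limma 3.58.1 in R 4.3.3 as 6 group means (12 residual degrees of freedom, trended and robust empirical Bayes). Every adjusted p is Benjamini-Hochberg over all tested genes, and limma's test is two-sided. A call is an adjusted p under 0.05. The script was tested on simulated data. Groups come from the sample titles. Summaries and figures used Python 3.11.15.

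The collagens and all gene lists were chosen with earlier results of these data known. Collagens given with values are the 12 with the highest mean, the 3 with the smallest p for each OK-432 comparison, those called between control lines with a mean of at least 5 TPM (at most 8 in each direction), and the type IV and type VI chains; others named were chosen after their values were seen. Up to 4 called genes were named from each other list. Intervals are 95% from the fit. The 3 libraries of a line shared replicate numbers across groups, and these did not pair them.

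Alternatives were a pseudocount of 0.1, no filter, a filter of 5 TPM, median-of-ratios scaling, quantile normalization, plain empirical Bayes, fits of the compared groups alone, a replicate block and leaving out each library, and, for collagens carried, thresholds of 0.5 and 5 TPM or the mean in place of every library.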

Additional observations from a re-analysis of the deposited data

How the results depend on the processing

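The number of collagens called with OK-432 stayed at 0 under every alternative in LL/2, CT26, the average and 2 of the 3 differences of effects. Leaving out single libraries gave 0 to 1 in CT26-NY-ESO-1 (higher, 0 to 1) and 0 to 1 in the LL/2 minus CT26-NY-ESO-1 difference of effects (lower, 0 to 1). The count of 1 is Col8a1 without CT26-NY-ESO-1 OK-432 library 2. Between control lines, leaving out single libraries gave 17 to 21 calls in LL/2 minus CT26, 18 to 21 in LL/2 minus CT26-NY-ESO-1 and 21 to 22 in CT26-NY-ESO-1 minus CT26. The other alternatives gave 15 to 23, 16 to 24 and 18 to 24. With a filter of 5 TPM, which tests fewer collagens, higher calls numbered 3 in LL/2 minus CT26 controls (5 with the 1 TPM filter), 3 in CT26-NY-ESO-1 minus CT26 controls (6 with it) and 4 in the same comparison of OK-432 libraries (7 with it). Over 3291 refits of 203 single-collagen results, 3241 kept direction and side of the threshold or were uncalled throughout, 34 calls were lost, 16 were gained and 0 called values turned. The cause of the changes was not tested. The sign of an uncalled value turned in 148 refits, among results no larger than 0.327 on the log2 scale. Collagens carried ranged from 18 to 24 in LL/2, 18 to 25 in CT26-NY-ESO-1 and 17 to 23 in CT26. Scaling moved the median of all genes in CT26-NY-ESO-1 minus CT26 controls by 0.171 (median of ratios) or 0.202 (quantile) and in LL/2 minus CT26 controls by 0.156 (quantile). Same-numbered libraries of a line correlated at -0.122 to 0.219, so the numbers were not taken to pair them. The replicate block left 0 calls in every OK-432 comparison and 19, 20 and 22 calls between control lines. Unknown depth limits what can be said of genes near 1 TPM.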
